A study of Mus musculus with 13 samples.

Results

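The 8 wild-type libraries of this series describe the baseline transcriptome of the mouse enamel organ, the dental epithelium that builds enamel on the growing incisor. They were taken as the table columns that carry the wild-type name and are 8 of 13 libraries in all. Each came from a Tgfbr2 +/+ mouse at postnatal day 11, from enamel organs that were micro-dissected out of the mandibular incisors. The other 5 libraries, from heterozygous littermates with the G357W substitution in Tgfbr2, were not used. The labels name neither strain nor sex, and they call the cells dental epithelial. The measurement was bulk RNA sequencing made with a kit that does not mark strand, so reads of overlapping genes on opposite strands cannot be told apart. The series describes 8 wild-type mice, so each library was taken as 1 mouse.

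Libraries are named here by the number pair in their columns. The number before the hyphen, called the library prefix, takes the values 1 (WT 1-1, WT 1-3, WT 1-4), 4 (WT 4-1, WT 4-3, WT 4-4) and 5 (WT 5-1, WT 5-3) and is nowhere explained. Total gene counts ran from 18852382 in WT 1-1 to 26508410 in WT 5-1, and 21502 to 22808 genes had a count in a library. The Y-linked gene Ddx3y had 3381, 3545 and 4716 counts in WT 1-4, WT 5-1 and WT 5-3 and 0 in the other 5, which had 1705 to 2802 counts of Xist, the RNA that silences an X chromosome. Both libraries of prefix 5 are thus among the 3 with Y-linked counts. WT 4-4 was the highest library for mesenchymal genes, WT 1-4 for skeletal muscle genes, WT 1-3 for oral mucosa genes and WT 5-3 for 1 dentin gene, with values given below.

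Ameloblasts, the enamel-forming cells, pass through stages that lie one after the other along the incisor, which grows throughout life. In the secretory stage they release the matrix proteins amelogenin (Amelx), ameloblastin (Ambn) and enamelin (Enam) and the protease enamelysin (Mmp20), which trims them. In the maturation stage they make the protease Klk4, which clears the matrix, and the basal lamina proteins amelotin (Amtn) and odontogenic ameloblast-associated protein (Odam), and move mineral ions and bicarbonate. A whole enamel organ holds both stages together with the supporting layers beside them.

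All 7 of these genes, the markers of the labelled cells, were counted in every library, with at least 2595 counts each. Odam, Amtn, Ambn and Enam lie together on the plus strand of chromosome 5 within 621 kb (87885029 to 88506049, GRCm38), and of the 25 genes annotated inside that span 5 had at least 10 counts in each library. Amelx lies on chromosome X (169176114 to 169187200, minus strand), Mmp20 on chromosome 9 (7628231 to 7674979) and Klk4 on chromosome 7 (43881160 to 43885804). The 100 bases before the RefSeq start of each gene are shown because they are the promoter ends of the transcripts on which the rest of the description turns, and because 5 of the 7 share a short stretch. They are written 5′ to 3′ on the gene's strand (GRCm38.p6), with capitals for the TATA box motif TATAAA and for ATTGG, which is CCAAT on the opposite strand.
Ambn, chr5:88455891-88455990, plus strand: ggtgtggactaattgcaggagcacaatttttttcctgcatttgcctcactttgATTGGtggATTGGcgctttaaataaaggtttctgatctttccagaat
Enam, chr5:88487875-88487974, plus strand: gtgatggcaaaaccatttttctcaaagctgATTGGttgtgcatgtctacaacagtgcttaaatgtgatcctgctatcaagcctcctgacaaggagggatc
Amelx, chrX:169187210-169187309, minus strand: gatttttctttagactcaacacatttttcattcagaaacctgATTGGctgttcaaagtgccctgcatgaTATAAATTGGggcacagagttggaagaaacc
Mmp20, chr9:7628131-7628230, plus strand: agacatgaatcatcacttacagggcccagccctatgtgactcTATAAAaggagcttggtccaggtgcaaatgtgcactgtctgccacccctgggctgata
Odam, chr5:87884910-87885009, plus strand: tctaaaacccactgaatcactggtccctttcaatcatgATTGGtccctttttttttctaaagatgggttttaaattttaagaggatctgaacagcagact
Amtn, chr5:88376008-88376107, plus strand: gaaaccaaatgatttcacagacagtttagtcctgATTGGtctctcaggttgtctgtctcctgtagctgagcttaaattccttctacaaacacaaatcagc
Klk4, chr7:43881060-43881159, plus strand: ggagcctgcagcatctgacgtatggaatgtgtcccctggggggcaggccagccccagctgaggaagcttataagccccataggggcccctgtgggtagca

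The matrix genes Ambn, Enam and Amelx and the basal lamina genes Odam and Amtn each hold ATTGG on the strand shown, and the proteases Mmp20 and Klk4 hold it on neither strand. The first base of the match lies 47 and 39 bases before the start in Ambn, 70 in Enam, 58 and 26 in Amelx, 62 in Odam and 66 in Amtn. In each of the 5 genes 1 match is preceded by TG, giving TGATTGG. Of the 32851 promoter windows of the same length in the RefSeq table, 10.4% hold ATTGG on the same strand, 18.89% hold it on either strand and 2.33% hold TGATTGG. This motif was searched for after the sequences had been read. TATAAA was found on the strand shown 31 bases before the start of Amelx, where it overlaps the second ATTGG by 1 base, and 58 before that of Mmp20. Of all windows, 3.80% hold TATAAA on the same strand and 5.56% on either strand. Median GC content was 41% over the 7 windows shown and 55% over all windows, so their base composition differs. These matches describe letters and were not tested as binding sites.

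Ambn was the most counted gene in every library. Its counts ran from 2983678 in WT 1-1 to 6450826 in WT 5-1, and its share of a library's counts from 12.9% in WT 4-4 to 24.3% in WT 5-1, with a median of 20.8% and a mean of 19.6% ± 3.90 (SD, n = 8). In bulk tissue, fewer cells of a type and less RNA per cell cannot be told apart. Next came Odam with 4.36% ± 0.651, Amelx with 1.67% ± 0.293 and Enam with 1.51% ± 0.337 of the counts (SD, n = 8). The 7 enamel genes together took 20.7% of the counts in WT 4-4 and 33.3% in WT 5-1. The 10 most counted genes of a library took 32.0% ± 3.77 and the 100 most counted took 47.4% ± 1.63, so that 108 to 173 genes held 50% of the counts. Protein-coding genes took 97.7% ± 0.223 and long intergenic RNAs 0.770% ± 0.141 (SD, n = 8).

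**Figure D1:**
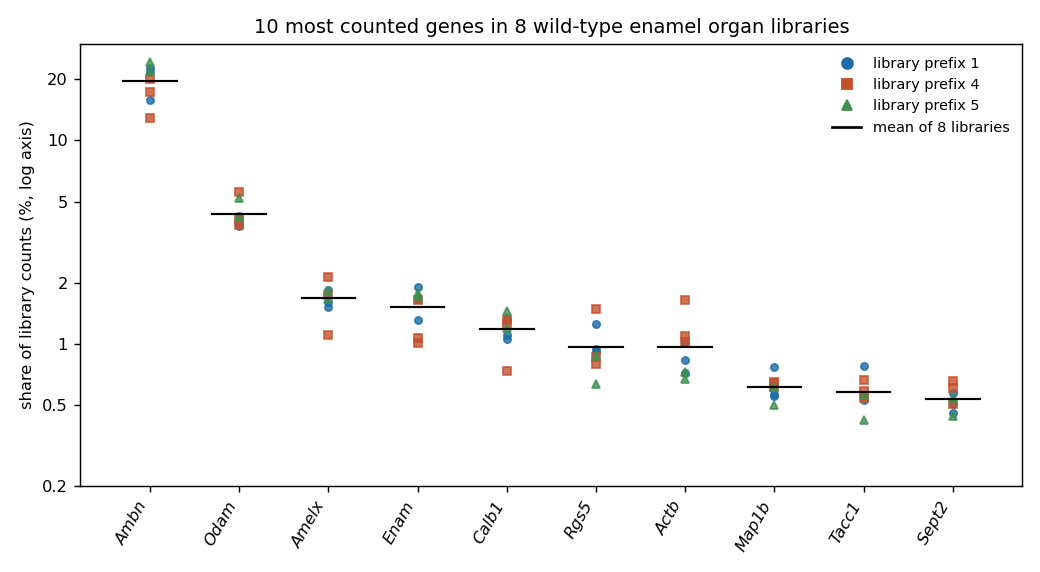
Share of library counts (percent, log axis) of the 10 genes with the highest mean share, 1 symbol per library with shape and colour for the library prefix and a bar for the mean of 8 libraries. Ambn, between 12.9% and 24.3%, stands above Odam, and from the sixth gene on the mean shares are under 1%.

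The other genes named here among the 20 most counted are not enamel matrix genes. Calb1, the calcium buffer calbindin, took 1.18% ± 0.218, Rgs5, a regulator of G protein signalling used as a pericyte marker, 0.969% ± 0.269, and Actb, cytoplasmic actin, 0.963% ± 0.318 (SD, n = 8). Actb was highest in WT 4-3 at 1.65% and at most 1.087% elsewhere. Below them were, among others, Map1b (a microtubule-associated protein), Tacc1, Sept2 (a septin), Mpzl1, Efna5 (an ephrin ligand), Rbm5, Tmem250-ps, Igf1 (a growth factor), Ptp4a2, Col1a1 (a chain of type I collagen), Maf (a transcription factor) and Nras, with mean shares from 0.614% down to 0.300%. Tmem250-ps, annotated as a long intergenic RNA, took 0.334% ± 0.116 and ran from 0.196% in WT 5-1 to 0.484% in WT 1-1. None of the most counted genes named here overlaps another annotated gene that took 0.01% or more of the counts.

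A long transcript collects more reads than a short one, so levels of different genes are compared in TPM, a level per base of transcript scaled to the same total in every library, computed from the counts and the summed exon length of each gene. On this scale Ambn stood at 300473 ± 48736 TPM, Odam at 94051 ± 14894, Amelx at 49560 ± 7931, Actb at 10742 ± 3805 and Enam at 8132 ± 1584 (SD, n = 8). Calb1 followed with 7195 ± 1241 TPM and Rgs5 with 6390 ± 2050, then Mpzl1, Tmem250-ps, Efna5 and Amtn between 4115 and 2963. The rest of the 20 highest, from 2717 to 2005 TPM, were Rpl3, a ribosomal protein, Kdelr2, which returns proteins to the endoplasmic reticulum (ER), Itm2b, Ftl1, the light chain of the iron store ferritin, Serpinh1, a collagen chaperone, and Ptp4a2, Twf1, Sdc4 and Sept2. In all, 15015 genes had a mean of at least 1 TPM, 1026 of at least 100, 55 of at least 1000 and 4 of at least 10000, namely Ambn, Odam, Amelx and Actb. Per length, the 7 enamel genes made up 45.6% ± 4.73 of the transcripts as counted and the 4 of chromosome 5 made up 40.6% ± 4.48 (SD, n = 8).

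Some genes that most cells use were low in these counts. Gapdh, a glycolytic enzyme, stood at 44.9 ± 4.38 TPM (SD, n = 8) and had 1148 to 1709 counts. The 84 cytosolic ribosomal protein genes together took 0.708% ± 0.0541 of the counts, with a median of 53.6 TPM against the 2717 TPM of Rpl3. Of the 13 protein genes of the mitochondrial genome, 6 (mt-Nd3, mt-Nd4l, mt-Co2, mt-Co3, mt-Atp6 and mt-Atp8) were listed at 0 counts in all 8 libraries, while mt-Co1 had 1375 ± 101 TPM and mt-Cytb 1023 ± 71.0. The genes on chromosome M took 0.238% ± 0.0113 of the counts. Ribosomal protein genes and Gapdh have many near-identical pseudogenes, and the sources used here do not say how reads that match several places were counted, so these levels are uncertain. The shares of all other genes, Ambn included, are taken over the same counted totals and carry that uncertainty too.

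**Figure D2:**
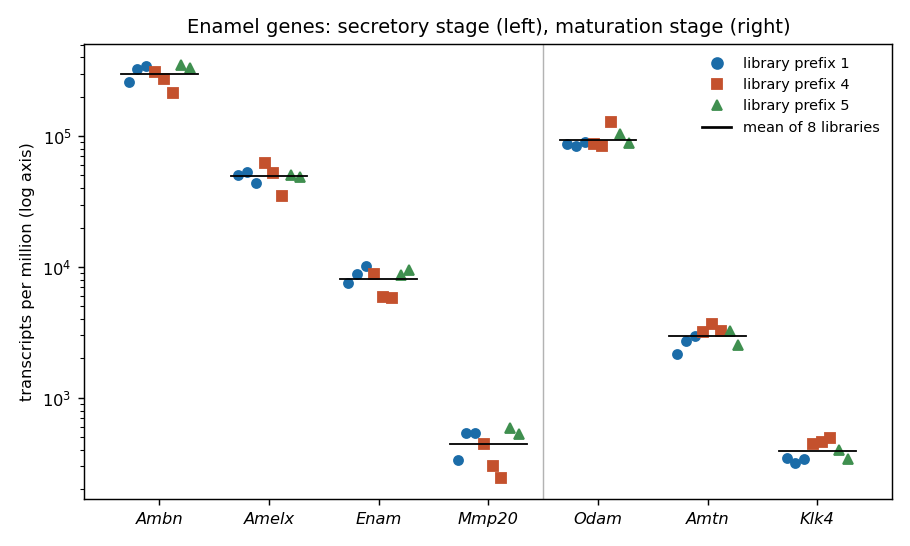
Level of the 7 enamel genes in TPM (log axis), 1 symbol per library in the order of the library names with shape and colour for the prefix, and a bar for the mean of 8 libraries. Ambn lies highest and Mmp20 and Klk4 lowest, and the spread between libraries is widest for Mmp20, from 243 to 587 TPM.

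The levels of the 7 genes in single libraries are given as log2 CPM, the log2 of counts scaled to the same total, which is not corrected for length. Ambn had its lowest value, 16.92, in WT 4-4, a median of 17.63 and its highest, 17.92, in WT 5-1. Enam ran from 13.25 (WT 4-4) through 13.98 to 14.23 (WT 1-4), Amelx from 13.37 (WT 4-4) through 14.06 to 14.38 (WT 4-1), and Mmp20 from 7.93 (WT 4-4) through 9.08 to 9.47 (WT 5-1). The 4 secretory genes thus shared their lowest library. Odam ran from 15.20 (WT 1-1) through 15.34 to 15.70 (WT 4-4), Amtn from 9.46 (WT 1-1) through 10.01 to 10.35 (WT 4-3) and Klk4 from 7.03 (WT 1-3) through 7.36 to 7.64 (WT 4-3). The maturation genes had theirs in libraries of prefix 1. The highest library exceeded the lowest 2.91-fold for Mmp20, 2.00-fold for Ambn and 1.41-fold for Odam on this scale.

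Among the matrix genes the order of levels per length was the same in all 8 libraries. Ambn stood above Amelx by a log2 ratio of 2.60 ± 0.24, which is 6.06-fold, and above Enam by 5.22 ± 0.15, which is 37.2-fold (SD, n = 8). Amelx stood above Enam by 2.62 ± 0.31. Odam stood above Amelx in all 8 libraries, with a log2 ratio of Amelx to Odam of -0.93 ± 0.43, lowest at -1.87 in WT 4-4. The 2 maturation basal lamina genes differed by 4.99 ± 0.26 in favour of Odam, which is 31.8-fold. Amelx exceeded Amtn by 4.06 ± 0.36 and Klk4 by 6.98 ± 0.37. For each of these 7 ratios the exact two-sided sign-flip permutation test gave p = 0.007812, the smallest that 8 libraries allow (0.008929 after Benjamini-Hochberg adjustment over 8 pairs). These ratios use the summed exon length, and on raw counts the ratio of Amelx to Enam was 0.16 with an adjusted exact p of 0.180.

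The proteases of the 2 stages were near each other in level and far below the matrix genes. Mmp20 had 6026 to 18476 counts and 441 ± 130 TPM, and Klk4 2595 to 4773 counts and 392 ± 65.2 TPM (SD, n = 8). The log2 ratio of Mmp20 to Klk4 was 0.12 ± 0.66, positive in 5 of 8 libraries, and its difference from 0 was smaller than the spread between libraries (exact two-sided sign-flip permutation test, p = 0.594). It ran from -1.01 in WT 4-4 and -0.59 in WT 4-3 to 0.77 in WT 1-3. On raw counts, with no correction for length, it was 1.52, and its adjusted exact permutation p was 0.00893.

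Both stage lists, drawn up for this description with results of these data known, were present in full. All 16 secretory genes had counts, and 15 passed the filter on low counts. The median over the list was 5.94 ± 0.17 on the log2(TPM + 1) scale (SD, n = 8), against 3.35 for all 13990 genes tested. Below the matrix genes, Acp4, a phosphatase needed for enamel, stood at 862 ± 123 TPM. Itgb6, the integrin subunit beta 6, had 446 ± 72.6 TPM and Dlx3, a homeobox factor, 220 ± 66.4, whereas Sp6, the transcription factor epiprofin, had 1 to 8 counts. The kinase Fam20c and its partner Fam20a stood at 33.3 ± 4.52 and 49.1 ± 8.02 TPM. Genes in this paragraph and the next that are not among the 4 highest of their list were picked for their role after their values had been seen.

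All 23 maturation genes had counts as well, and 21 passed the filter. The list's median was 5.12 ± 0.20 on the log2(TPM + 1) scale (SD, n = 8). After Odam and Amtn came Cnnm4, a magnesium transporter, with 1767 ± 462 TPM, then Klk4. Carbonic anhydrases, which supply bicarbonate, followed with 199 ± 46.1 TPM for the secreted Car6 and 136 ± 25.8 for Car2. Ctsk, which is also in the osteoclast list, lay between them. The citrate transporter Slc13a5 stood at 117 ± 21.1 TPM and the calcium exchanger Slc24a4 at 53.5 ± 8.18. Of the SLC26 anion exchangers, Slc26a7 (30.9 ± 5.76 TPM) and Slc26a1 (30.3 ± 7.62) were higher than Slc26a6 (4.47 ± 1.16), and Slc26a3 and Slc26a4 had at most 41 and 24 counts. Wdr72, needed for endocytosis in maturation, ran from 370 counts in WT 4-1 to 1275 in WT 5-1. The secretory list took 23.0% ± 4.396 of the counts, most of it Ambn, and the maturation list 4.88% ± 0.645, most of it Odam (SD, n = 8).

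Genes of secretion and mineral handling were well represented. The ER chaperone list (18 genes) had a median of 6.58 ± 0.12 on the log2(TPM + 1) scale, led by Hspa5 (507 ± 83.9 TPM), the chaperone BiP, Canx (468 ± 124), calnexin, Pdia3 (391 ± 33.1) and P4hb (380 ± 23.5), which form disulfide bonds. The list of COPII and COPI coats (19 genes), which move cargo between ER and Golgi, had a median of 5.95 ± 0.21 and was led by Sar1b at 477 ± 35.7 TPM and Arf1 at 267 ± 30.6, the GTPases of these coats. Among iron genes (median 4.49 ± 0.18), Ftl1 and Fth1, the 2 chains of ferritin, stood at 2478 ± 348 and 1653 ± 378 TPM and the transferrin receptor Tfrc at 200 ± 39.3. Among calcium genes (median 4.74 ± 0.22), Calb1 was highest. Stim2, a sensor of ER calcium, had 317 ± 103 TPM, the ER pump Atp2a2 128 ± 24.04 and the ER calcium-binding protein Calr 121 ± 22.7 (SD, n = 8 throughout).

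Keratins and genes of the supporting layers were present as well. Krt14 and Krt5, the keratins of basal epithelium, stood at 1322 ± 182 and 400 ± 73.7 TPM, and Krt17 at 302 ± 85.4 with its lowest value in WT 4-4. In the list of stratum intermedium and papillary layer, Alpl, alkaline phosphatase, had 198 ± 37.4 TPM, Cd24a 110 ± 21.6, Notch2 70.1 ± 35.8 and Jag1 45.2 ± 8.13 (SD, n = 8). Notch2 ran from 2831 counts in WT 5-1 to 12035 in WT 4-3. Of the progenitor genes of the cervical loop, where the incisor's epithelium renews itself, Igfbp5 had 95.3 ± 35.6 TPM and Gli1 37.3 ± 8.51. Sox2 and Lgr5 had at most 25 and 10 counts in any library.

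Markers of tissue outside the dental epithelium were present in all libraries, in amounts that differed between them. Over the 14 fibroblast and mesenchyme genes, the summed share ran from 0.552% of the counts in WT 5-3 to 1.29% in WT 4-4, with Col1a1 at 1444 ± 668 TPM and Col3a1 at 757 ± 270, both collagen chains. WT 4-4 was the highest library for 12 of these 14 genes and for 9 of 14 endothelial and pericyte genes, whereas 16.6% of all genes tested were highest there. The 14 endothelial and pericyte genes took 0.652% of the counts in WT 5-1 and 1.501% in WT 4-4, nearly all of it Rgs5. Among them Esam had 26.2 ± 5.74 TPM, Egfl7 40.4 ± 9.89 and Emcn 9.54 ± 1.02. Of bone genes, Ibsp (bone sialoprotein) had 798 ± 338 TPM and Spp1 (osteopontin) 616 ± 193, and of osteoclast genes Ctsk and Acp5 had 198 ± 54.5 and 198 ± 49.0 (SD, n = 8). Ctsk is also in the maturation ameloblast list, so its level cannot be assigned to osteoclasts alone.

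Some markers of other tissues were higher in 1 library than in the rest, Acta1 by less than Ckm, Krt13, Krt4 and Dspp. Ckm, muscle creatine kinase, had 1177 counts in WT 1-4 and 7 to 140 elsewhere, and Acta1, skeletal muscle actin, 833 against 9 to 503. Krt13 and Krt4, keratins of the oral lining, had 439 and 325 counts in WT 1-3 and at most 6 and 2 elsewhere. Dspp, the precursor of dentin matrix proteins, had 1507 counts in WT 5-3 and 5 to 79 elsewhere. The 16 muscle genes took 0.00119% to 0.0207% of the counts and the 12 oral mucosa genes 0.00259% to 0.00972%. Macrophage and red blood cell genes were present in all 8 libraries. The 15 genes of macrophages and other immune cells took 0.0133% to 0.0196%, led by Cd68 at 61.8 ± 9.46 TPM, and the T cell gene Cd3e had at most 2 counts. Hbb-bs, adult beta globin, had 623 ± 106 TPM. Of the 7 salivary genes matched, 3 (Smr3a, Dcpp1 and Pip) were at 0 counts in all 8 libraries and Amy1 had 5 to 19. How far these tissues moved other results was not tested, beyond leaving out each library and, for the similarity of libraries, the genes of other cell types.

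**Figure D3:**
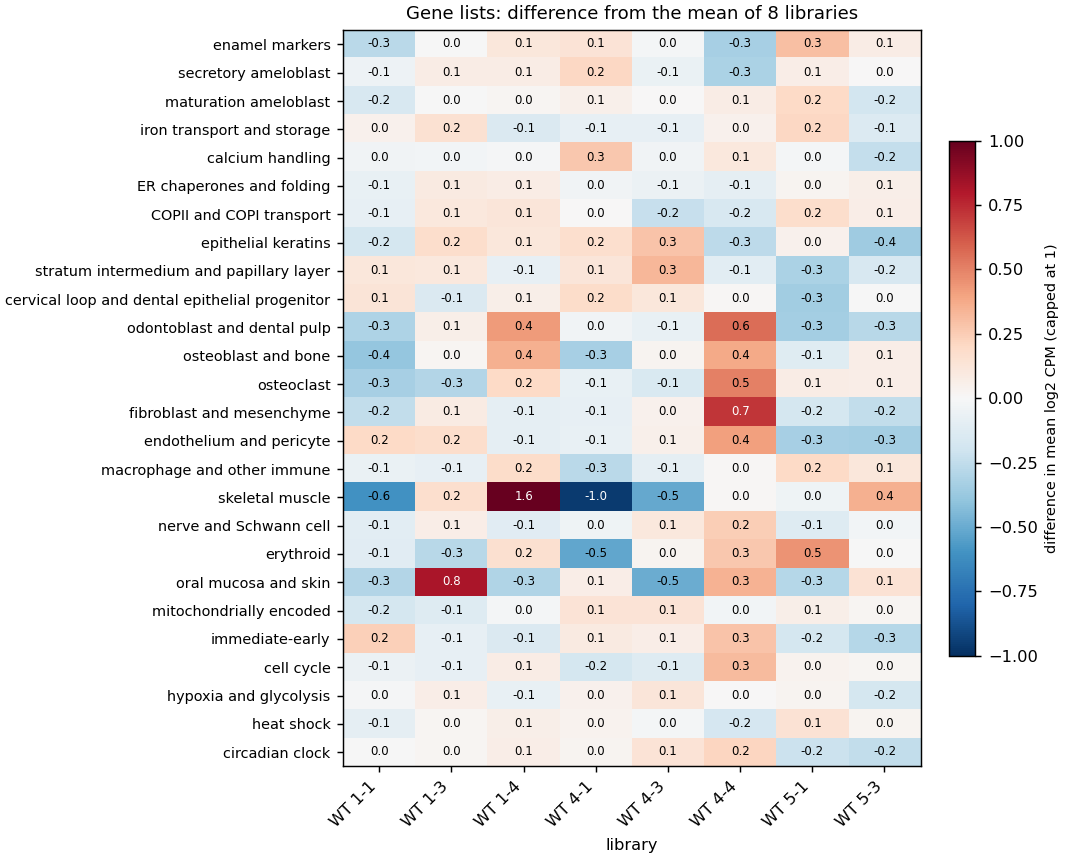
Mean log2 CPM over the tested members of each gene list, as the difference from the mean of the 8 libraries, with libraries in columns. WT 4-4 is high for fibroblast and mesenchyme genes (7.26 against 6.30 to 6.63 elsewhere), WT 1-4 for the 4 muscle genes tested (3.49 against 0.94 to 2.26) and WT 1-3 for the 4 oral mucosa genes tested (3.10 against 1.79 to 2.62).

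Of the 4 secretory genes, Ambn, Enam and Mmp20 varied together between the libraries. Across the 8 libraries the log2 CPM of Ambn and Mmp20 had a Pearson r of 0.969 (exact permutation p = 4.96e-05, adjusted p = 0.00104 over 21 pairs of markers) and a Spearman rho of 0.976 (adjusted permutation p = 0.00833). Enam followed Mmp20 (r = 0.951, adjusted exact permutation p = 0.0154, rho = 0.905) and Ambn (r = 0.904, adjusted exact permutation p = 0.0203, rho = 0.881, where the adjusted p of rho was 0.0507). Without the 2 libraries farthest from the median, r was 0.935, 0.860 and 0.817 for these 3 pairs. After centring within the library prefixes it was 0.958, 0.916 and 0.858, and after centring within libraries with and without Ddx3y counts, an alternative chosen after seeing the data, 0.938, 0.902 and 0.808. No adjusted p was under 0.05 after either centring, where the lowest were 0.292 and 0.0583 and few permutations remain (72 and 720).

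The pairs of Amelx with Ambn, Enam and Mmp20 did not pass, with adjusted exact permutation p of 0.286, 0.454 and 0.344. With Ambn its r was 0.699 (rho = 0.333) and -0.373 without WT 1-1 and WT 4-4, so that it rests on those libraries. After centring within the prefixes this r was 0.775 (adjusted exact permutation p = 0.458), and within libraries with and without Ddx3y counts 0.911 (adjusted exact permutation p = 0.136). Amelx was highest in WT 4-1 at 14.38 log2 CPM and lowest in WT 4-4 at 13.37, the library that was also lowest for Ambn, Enam and Mmp20. The maturation genes Amtn and Klk4 had r = 0.799 (exact permutation p = 0.0147, adjusted p = 0.0769, rho = 0.738), above the threshold of 0.05. Mmp20 and Klk4, the proteases of the 2 stages, had r = -0.330 (adjusted exact permutation p = 0.715). Odam and Ambn, the pair of highest level, had r = -0.126 (adjusted exact permutation p = 0.910) and 0.778 without WT 1-1 and WT 4-4. Odam was highest in WT 4-4, where Ambn was lowest.

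**Figure D4:**
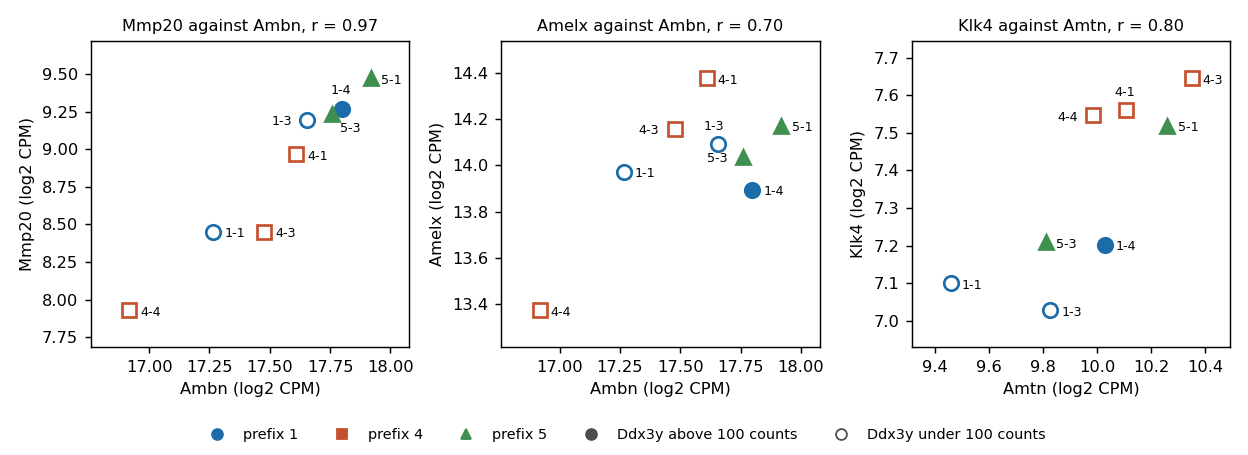
log2 CPM of pairs of enamel genes in the 8 libraries, with shape and colour for the prefix and filled symbols for libraries with Ddx3y counts. Mmp20 rises with Ambn from WT 4-4 to WT 5-1 (r = 0.97), the relation of Amelx to Ambn (r = 0.70) rests on WT 4-4 and WT 1-1, and Klk4 and Amtn have r = 0.80.

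The genes most like Ambn over the 8 libraries, by Pearson r among 8409 genes, were Ndufa3 (0.978), a subunit of respiratory complex I, Lztfl1 (0.973), Tecr (0.973), Tmem256 (0.972) and Dcaf4 (0.972). Those most like Klk4 were Rtf1 (0.948), Pcbp1 (0.911), Tuba1c (0.908), a tubulin, Slc16a1 (0.898), a lactate transporter, and Ifnar2 (0.889). These values are a description over 8 points that share depth and composition, and each is the top of a long ranking.

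Most genes differed little between libraries. The median SD was 0.27 log2 CPM over the 13990 genes tested, and the common biological coefficient of variation was 0.201. Odam was steadier than the median gene (SD 0.19) and Mmp20 more variable (SD 0.54). Of genes with a mean of at least 3 log2 CPM, the most variable was Pear1, a receptor of platelets and endothelium, from 100 counts in WT 5-1 to 777 in WT 1-1 (SD 1.22 log2 CPM). It was low in WT 4-1, WT 4-4 and WT 5-1 (1.97 to 3.18 log2 CPM) and at 4.44 or more in the other 5. Prg2, the major basic protein of eosinophils, had 81 counts in WT 4-3 and 627 in WT 5-3 (SD 0.98). Adora2b, an adenosine receptor, had SD 0.91 with its highest level in WT 5-1, Trarg1, which regulates traffic of a glucose transporter, SD 0.85 and Slc1a3, a glutamate transporter, SD 0.83, both with their highest level in WT 4-4. Slc40a1, the iron exporter ferroportin, ran from 442 counts in WT 4-3 to 2952 in WT 5-1. Epas1 (a hypoxia-inducible factor), Eln (elastin), Rxfp1, Tnfrsf21 and Draxin also peaked in WT 4-4, and Peg12, Tmem151b, Tmem132c and Scnm1 in WT 4-3.

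No gene passed the main test for a difference between the library prefixes. In a principal component analysis, component 1 carried 29.4% of the variance, and the prefix explained 75.4% of its spread, with prefix 4 and WT 1-1 on 1 side and prefix 5 with WT 1-3 and WT 1-4 on the other. Mmp20 and Slc40a1 were among its leading genes on the side of prefix 5, and Trarg1, Peg12, Col26a1 and Eng on the other side. The 3 libraries with Y-linked counts all lay on the side of prefix 5, and the share explained by the prefix was not tested. The mean correlation of library pairs was 0.9795 within prefixes and 0.9760 between them. The difference was 0.0035 (exact one-sided permutation test over 560 assignments, p = 0.0607). The exact permutation p was 0.0357 with the 500 most variable genes and 0.0286 without WT 4-1. It was 0.0667 to 0.0952 with any other library left out and 0.0607 without genes of other cell types. Between the 3 prefixes edgeR called 0 of 17024 genes (0% called, quasi-likelihood test with Benjamini-Hochberg adjustment), although 2090 had an unadjusted p under 0.05. The count was 341 with DESeq2, 1 with limma-voom and 699 with no filter on low counts, and with edgeR it was 15 without WT 4-1, 9 without WT 1-4 and 1 without WT 1-1 or WT 5-1. Both prefix 5 libraries carry Y-linked counts, no prefix 4 library does, and within prefix 1 only WT 1-4 does, so the prefix and the Y-linked difference overlap in part.

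**Figure D5:**
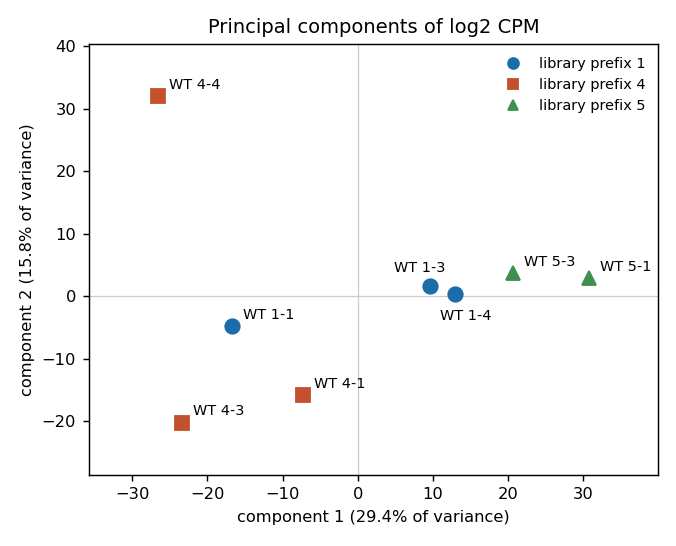
First and second principal components of log2 CPM over the genes tested, 1 symbol per library with shape and colour for the prefix. Component 1 places WT 5-1 and WT 5-3 opposite WT 4-3 and WT 4-4, and component 2 sets WT 4-4 apart.

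Genes that tracked Ambn were sought with a slope, the log2 change of a gene for each 1 log2 unit of Ambn. Of 13989 genes, 89 had a positive slope past the edgeR threshold (0.636% called) and 157 a negative one (1.12% called), where the quasi-likelihood p was adjusted by Benjamini-Hochberg. Mmp20 rose with Ambn by 1.59 ± 0.23 (SE, edgeR adjusted p = 0.00873). Enam had a slope of 0.98 and Amelx of 0.63, with edgeR adjusted p of 0.0941 and 0.309. The strongest other positive slopes by p were those of Lztfl1, Tspan6, Ctnna2 (an alpha-catenin), Rab38 (a GTPase of secretory organelles), Mynn, Polr3k, Pop4, Acpp and Orc3, from 0.96 to 1.33 with edgeR adjusted p from 0.0123 to 0.0276. Of list members, Krt17 (1.63 ± 0.32), the disulfide isomerase Pdia4 (1.12 ± 0.27) and Cd24a (0.99 ± 0.22) rose with Ambn (edgeR adjusted p of 0.0276, 0.0494 and 0.0372). Without WT 4-4 the slope of Krt17 was 0.43 of the size given, the lowest ratio of the genes named, whose median was 1.23.

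The genes that fell as Ambn rose included Eng of blood vessels and several genes of connective tissue. Tnfrsf21 had the smallest p, with a slope of -2.002 ± 0.20 (SE, edgeR adjusted p = 0.000552), at 6.20 log2 CPM in WT 4-4 and 4.10 to 5.25 elsewhere. Trarg1 (-2.37 ± 0.33), Epas1 (-2.01 ± 0.31), Eng (-1.86 ± 0.25), the endothelial TGF-beta co-receptor endoglin, and Tbx3 (-1.82 ± 0.24), a T-box transcription factor, followed with edgeR adjusted p from 0.00656 to 0.00924. Cit, Afap1, Gas7, B4galt5 and Lats2, a kinase of the Hippo pathway, had slopes from -1.77 to -1.37. In the fibroblast and mesenchyme list 13 of 14 slopes were negative, with a median of -0.91 against -0.01 for all genes, and Col5a1 (-1.34 ± 0.24), Col6a1 (-1.23 ± 0.22) and the receptor Pdgfrb (-1.18 ± 0.23) passed the edgeR test. Endothelial and pericyte genes had 12 of 14 negative slopes (median -0.86) and none passed. Ncam1, an adhesion molecule of the nerve list, fell by 1.60 and Junb, an immediate-early factor, by 1.13 for each log2 unit of Ambn (edgeR adjusted p of 0.0276 and 0.0298). All 11 immediate-early genes tested had negative slopes (median -0.45). In the COPII and COPI list 17 of 19 slopes were positive (median 0.49), and none passed. Maturation genes were split, with 10 positive and 11 negative slopes and none past the threshold. Over all 13989 genes tested, 49.4% of the slopes were positive, the share to set beside these list counts.

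The number of genes called on the Ambn axis changed with the terms in the fit and with the libraries used. The 3 libraries with Y-linked counts were the 3 highest for Ambn (17.76 to 17.92 log2 CPM), and WT 4-4, highest for fibroblast genes, was the lowest (16.92). The Ambn level and the Y-linked difference thus overlap in these libraries, and why the counts below changed was not tested. With the Y-linked level as a covariate, an alternative chosen after seeing the data, edgeR called 0 genes (1511 at an unadjusted p under 0.05), and with the prefix as a term it called 4. The slopes themselves kept much of their size with the Y-linked covariate: over the 28 genes named here as past the threshold the median ratio to the slope above was 0.88, from 0.67 for Col6a1 to 1.36 for Krt17, and Mmp20 had a slope of 1.57. These 28 were chosen for passing in the same libraries, so their kept size is no independent check. Without single libraries the count was 105 (WT 1-1), 115 (WT 1-3), 48 (WT 1-4), 123 (WT 4-1), 622 (WT 4-3), 126 (WT 4-4), 1 (WT 5-1) and 40 (WT 5-3), and 44 of the 246 genes were called again without WT 4-4. With DESeq2 it was 1047. Across genes the slope had a Spearman correlation of -0.30 with GC content, and called genes had a median GC content of 47.1% when positive and 54.3% when negative, against 49.3% for all genes tested, where genes are not independent replicates. With a GC offset, also chosen after seeing the data, 162 genes were called. The slope of Junb was then 0.60 of its size above, the lowest ratio of the 28 genes, whose median was 0.92.

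The balance of the 2 proteases gave a second axis, the log2 ratio of Klk4 to Mmp20 counts in the same library, which needs no scaling between libraries. It was lowest in WT 1-3 and highest in WT 4-4. On this axis edgeR called 202 of 13988 genes with a positive slope (1.44% called) and 135 with a negative one (0.965% called). Ambn, Enam and Amelx did not pass (adjusted p of 0.173, 0.0694 and 0.554), nor did Amtn and Odam (0.788 and 0.809), in the edgeR test. Lmna, which encodes lamins A and C of the nuclear envelope, rose with the ratio by 0.79 ± 0.11 (SE, edgeR adjusted p = 0.00801), with its lowest level in WT 5-3 (7.94 log2 CPM) and its highest in WT 4-4 (9.49). Cercam (0.87 ± 0.13), Trarg1 (1.12 ± 0.16), Draxin, Cit, Cdkn1c (a cell cycle inhibitor), Il1r1, Shisa4, Tbx3os1 and Lats2 rose as well, with edgeR adjusted p from 0.00801 to 0.0193. Sgk3, a kinase of ion transport, fell by 0.76 for each log2 unit of the ratio, and Pxylp1 by 0.68 (both with edgeR adjusted p = 0.00801). Thsd1, Arsb (a lysosomal sulfatase), Acadsb, Necab1, Mtmr10, Gpkow, Pde4b and Rims3 also fell, with slopes from -0.85 to -0.50.

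This axis and the first rest on the same libraries, and Mmp20, which tracked Ambn and varied more than Klk4, is part of it. WT 4-4 was the highest library for the ratio and the lowest for Ambn. Genes called on both axes, with opposite signs, are therefore not independent results. Fibroblast and mesenchyme genes had 13 of 14 positive slopes (median 0.40 against 0.00 for all genes), with Col5a1 and Col6a1 past the edgeR threshold. Krt17 (-0.73 ± 0.16), Pdia4 (-0.59 ± 0.13) and Copa (-0.39 ± 0.10), a subunit of the COPI coat, fell with the ratio (SE, edgeR adjusted p of 0.0345, 0.0297 and 0.0467), and Ncam1 rose by 0.72 ± 0.15 (edgeR adjusted p = 0.0279). Without WT 4-4 the slope of Krt17 was 0.45 of the size given. Of the tested maturation genes 13 of 20 had positive slopes and none passed, where 50.3% of the slopes of all 13988 genes were positive. With the Y-linked covariate 0 genes were called by edgeR (1448 at an unadjusted p under 0.05) and with the prefix as a term 1, while the 26 named slopes had a median ratio of 0.90 to those above with that covariate, from 0.55 for Col6a1 to 1.18 for Krt17. These 26 were likewise chosen for passing in the same libraries. Without single libraries the count was 265 (WT 1-1), 261 (WT 1-3), 76 (WT 1-4), 164 (WT 4-1), 93 (WT 4-3), 469 (WT 4-4), 70 (WT 5-1) and 80 (WT 5-3). Of the 337 genes called with all libraries, 167 were called again without WT 4-4. With DESeq2 the count was 979.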

How the data were processed

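Bulk RNA-seq of 8 wild-type enamel organs was analysed. Per the labels' protocols, total RNA went into unstranded Nextera XT libraries, read as 75-base single reads in 2 runs. The submitters' processing notes name STAR 2.5.2a, DESeq2, edgeR, limma and GRCm38, while how reads were assigned to genes is not stated there. Raw counts were deposited by the authors for 48709 mouse genes and 24 spike-in and transgene sequences, and the latter stayed out of totals and tests. A normalized signal that the authors deposited, CPM with trimmed-mean scaling per the table's name, was not tested. Symbols, exon lengths and positions came from GENCODE M21 (GRCm38), with 48349 genes matched, and promoters came from RefSeq (GRCm38.p6), with 7 of 7 enamel genes matched.

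Columns carry no replicate number, so they were assigned to the genotype alone. No library repeated another (lowest chi-square per gene 13.4 over 28 pairs). Tests used edgeR 4.0.16 in R 4.3.3 (TMM factors, filterByExpr with a minimum count of 10, glmQLFit with robust estimation, glmQLFTest, Benjamini-Hochberg over all genes tested, threshold 0.05). Values are log2 CPM with a prior count of 2, or log2(TPM + 1). Ratios and correlations of markers used exact permutation tests in Python 3.11.15. Data were simulated from the real means with each gene drawn independently. With 13990 genes and changes put into prefix 5 alone, the prefix test recovered 2.99%, 34.3% and 92.4% of genes changed 1.5-fold, 2-fold and 4-fold. For these folds per log2 unit of Ambn, the slope test recovered 1.49%, 13.4% and 83.3%. Per log2 unit of the ratio of Klk4 to Mmp20 it recovered 34.3%, 85.1% and 97.0%. Alternatives were RLE factors, other filters, DESeq2 1.42.0, limma-voom 3.58.1, other lengths, leaving out each library and, chosen after seeing the data, a GC offset and terms for Y-linked counts. Depth of 18852382 to 26508410 counts per library limits counts near 0, and a count of 0 allows up to 3 counts.

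The members and gene lists were chosen with earlier results of these data known, so lists get counts and medians and no test. The genes named are the 7 markers, the 20 of highest share, of highest TPM and of highest SD, the 10 of smallest p in each direction of each slope fit, the 4 highest members of each list and those past the threshold, and the 5 most like Ambn and Klk4. Others were chosen after their values were seen. Levels of 1 gene that meets the rule are not reported here.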

Additional observations from a re-analysis of the deposited data

Results flagged for a closer look

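Of 126 values and lists screened over the 8 libraries, 7 had 1 library whose gap to the nearest other library was a large part of the whole range (Dixon's test), where chance gives about 1 in 20. The count of 7 in 126 is near that rate. Dspp, Krt13, Krt4, Acta1 and Ckm were added to the screen by choice, so flags among them are not finds of the screen. Acta1, Ckm and the muscle and oral mucosa lists were not flagged. Actb was highest in WT 4-3 at 14.09 log2 CPM, against 12.73 to 13.35 elsewhere, a gap of 0.546 of the range. The fibroblast and mesenchyme list was highest in WT 4-4, at 7.26 against 6.30 to 6.63, with a gap of 0.653. The log2 ratio of Amelx to Klk4 was lowest in WT 4-4, at 6.15 against 6.84 to 7.39, with a gap of 0.557, and that of Amelx to Odam at -1.87 against -1.06 to -0.48, with a gap of 0.584. Dspp in WT 5-3 (5.98 log2 CPM, at most 1.64 elsewhere) had a gap of 0.569, and Krt13 and Krt4 in WT 1-3 (4.10 and 3.66, at most -1.59 and -2.56 elsewhere) had gaps of 0.742 and 0.862.

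Spike-in and transgene sequences, which belong to no comparison, had a few counts. The highest in a library were 4 for SIRV1 (WT 4-3), 5 for SIRV4 (WT 5-1), 4 for SIRV5 (WT 4-4), 8 for SIRV6 (WT 1-4), 7 for SIRV7 (WT 4-4) and 6 for tg_beta-lac (WT 1-3).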

How the results depend on the processing

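The mean log2 ratios of the 8 marker pairs kept their sign under every alternative run, and on raw counts Enam exceeded Amelx in WT 1-4 and WT 5-3. Per kilobase of exon, Ambn made up 30.05%, the top 10 genes 48.8% and the top 100 genes 59.5% of a library, and with the longest transcript as length the secretory list's median was 6.20. Leaving out each library moved the mean log2 ratios only to 2.55 to 2.64 (Ambn to Amelx), 5.17 to 5.23 (Ambn to Enam), 2.54 to 2.69 (Amelx to Enam), 4.95 to 5.06 (Odam to Amtn), 6.92 to 7.10 (Amelx to Klk4), -0.99 to -0.79 (Amelx to Odam), 3.99 to 4.16 (Amelx to Amtn) and 0.031 to 0.286 (Mmp20 to Klk4). Without a length correction Amelx to Enam was 0.158 and Mmp20 to Klk4 1.52. Of 3 marker pairs that passed, 1 did without the 2 farthest libraries and 0 after centring within prefixes or by Ddx3y counts. The same-prefix difference was 0.0329 with the 500 most variable genes and 0.0024 to 0.0052 with 1 library left out.

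The slope calls depended on the processing. For Ambn, edgeR called 1 to 622 genes with 1 library left out, DESeq2 1047, and edgeR 4 with the prefix as a term, 162 with the GC offset and 0 with the Y-linked covariate. For Klk4 to Mmp20 these were 70 to 469, 979, 1 and 0, with 279 under the GC offset. Between prefixes the counts were 0 to 15 with 1 library left out, 699 with no filter, 341 with DESeq2 and 1 with limma-voom. The cause was not tested. Of the 28 genes named for the slope on Ambn, 0 stayed past the threshold with the Y-linked covariate, 1 without WT 5-1 and 15 without WT 4-4, and none turned its sign; most slopes kept much of their size under that covariate (median ratio 0.88). Of the 26 named for the ratio, 0 stayed with the Y-linked covariate and none turned its sign. Both sets were chosen for passing in these same libraries, so kept signs and sizes are no independent check. No paired analysis was possible because the columns carry no replicate number from the labels and 1 genotype was analysed.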

Other observations

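Gene groups outside enamel formation, described by the same lists, were present in all 8 libraries. In the glycolysis and hypoxia list (median 4.96 ± 0.11 on the log2(TPM + 1) scale, SD, n = 8) the lactate dehydrogenase subunit Ldha stood at 565 ± 69.8 TPM, the aldolase Aldoa at 407 ± 64.9, the pyruvate kinase Pkm at 277 ± 30.8 and the hexokinase Hk2 at 218 ± 73.6. Of heat shock genes (median 4.80 ± 0.09), Hspa8 had 188 ± 23.1 TPM and Dnaja1 102 ± 6.57. Cell cycle genes had a median of 2.82 ± 0.17, with a mean log2 CPM of 3.59 in WT 4-4 and 3.10 to 3.35 elsewhere, and their highest members were Tyms at 39.6 ± 7.54 TPM and Rrm2 at 23.8 ± 5.04, both enzymes of nucleotide synthesis.

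Single members stood far above the rest of their list in some groups. Per3, a period protein of the circadian clock, had 543 ± 128 TPM, while Tef, the next clock gene, had 25.7 ± 3.09 (SD, n = 8). Btg2, an antiproliferative immediate-early gene, had 655 ± 193 TPM, and Junb, the next of that list, 24.7 ± 9.03. Ncam1 had 543 ± 241 TPM and Pmp22, a myelin protein also made outside nerves, 294 ± 28.6, while the nerve and Schwann cell genes Tubb3 and S100b had 19.9 ± 4.68 and 14.7 ± 3.47. The mineralization genes Dmp1 and Mepe, both highest in WT 1-4, had 66.0 ± 31.6 and 33.2 ± 19.96 TPM.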
